A study of Mus musculus with 22 samples.

Results

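Cytochrome P450 enzymes are haem proteins that insert an oxygen atom from molecular oxygen into their substrates, using electrons passed on by cytochrome P450 reductase in the endoplasmic reticulum or by adrenodoxin in mitochondria. Some families clear or activate foreign chemicals, and others make or break down steroids, fatty acid mediators, vitamin D, bile acids and retinoic acid. In the mouse lung the club cells of the conducting airways are the best known site of foreign-chemical P450s, and the aryl hydrocarbon receptor (AhR) controls the CYP1 family. The genes described here are the protein-coding genes whose symbol starts with Cyp and a digit, without Cyp51. They are 99 of the 54532 genes in the deposited table.

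Whole-lung RNA was sequenced from young male C57BL6/j mice after 8 days in hypoxia or normoxia. ABT-263 (navitoclax), which blocks anti-apoptotic BCL-2 family proteins and is used as a senolytic, was given at 50 mg/kg/day, and the other mice received its vehicle. The 22 libraries fell into Hypoxia ABT-263 (n = 5), Hypoxia Vehicle (n = 6), Normoxia ABT-263 (n = 6) and Normoxia Vehicle (n = 5), and the labels name no genetic change in any group. Groups follow the sample titles. In 3 libraries, replicate 1 of the Hypoxia ABT-263, Hypoxia Vehicle and Normoxia ABT-263 groups, another label named the other treatment. Replicate numbers only name the libraries. The labels do not state an oxygen concentration, and the p-values below measure the spread between these samples.

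Library totals ran from 11509007 to 15744193 counts. The tissue label held against its markers: the summed level of 10 alveolar type 2 genes was 38533 to 52904 CPM (counts relative to the TMM-scaled library total), and 8 hepatocyte genes together reached 0.748 to 3.87 CPM. In bulk tissue, fewer cells of a type and less RNA per cell cannot be told apart.

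Of the 99 genes, 31 had enough counts to be tested, 34 were at 0 in every library, and the other 34 appeared in at least 1 library without passing the filter, the highest of them at 18 counts. A gene at 0 is below 3 counts, which is 0.191 CPM in the deepest library and 0.261 CPM in the shallowest. The genes at 0 were concentrated in liver-type clusters. Of the 14 Cyp2c genes on chromosome 19 (GRCm38, 39007019 to 40187333) 12 were at 0 and none was tested. Of the 8 clustered Cyp3a genes on chromosome 5 (145345279 to 146113287) 6 were at 0 and none was tested. In contrast, none of the 13 genes of the Cyp2a, Cyp2b, Cyp2f, Cyp2g, Cyp2s and Cyp2t cluster on chromosome 7 (25802475 to 27158668) was at 0 throughout, and 5 of them were tested. None of the 6 steroid hormone synthesis genes passed the filter, and 3 of them were at 0 throughout.

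Per kilobase of exon, 1 gene dominated. Cyp2f2, the mouse club cell enzyme that activates naphthalene, averaged 3159 CPM per kilobase over the 22 libraries. Cyp4b1, a lung enzyme that oxidises fatty acids and activates some furan toxins, followed at 199.7 CPM per kilobase. Next came Cyp2b10, a target of the nuclear receptor CAR in the liver, at 107 and Cyp2s1, an epithelial P450, at 59.0 CPM per kilobase. Cyp2a5, which oxidises coumarin and nicotine, stood at 30.0, and Cyp39a1, an oxysterol hydroxylase, at 17.9 CPM per kilobase. Cyp20a1, an orphan P450 with no settled substrate, was at 17.1 and Cyp26b1, which breaks down retinoic acid, at 14.5 CPM per kilobase.

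All P450 genes together held 0.531 ± 0.0483% of counts in Hypoxia ABT-263 (SD, n = 5), 0.658 ± 0.0769% in Hypoxia Vehicle (n = 6), 0.989 ± 0.234% in Normoxia ABT-263 (n = 6) and 0.956 ± 0.0473% in Normoxia Vehicle (n = 5). Cyp2f2 alone was 75.6% to 83.9% of that share. The highest Hypoxia Vehicle library (0.777%) was below the lowest Normoxia Vehicle library (0.881%), and the highest Hypoxia ABT-263 library (0.609%) was below the lowest Normoxia ABT-263 library (0.638%).

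The first question was what hypoxia changed. With vehicle, 8 of the 31 tested P450 genes passed the edgeR quasi-likelihood test at an adjusted p (Benjamini-Hochberg over all 16638 genes tested) of 0.05, against a background of 26.3% of all genes. Of the 8, 1 was higher and 7 were lower in hypoxia, where the background was 13.5% higher and 12.8% lower. With ABT-263, 14 of 31 passed, 1 higher and 13 lower, against a background of 39.2% (17.9% higher and 21.3% lower). The count of passing genes in either direction was therefore close to the background in both comparisons, while the lower calls were 22.6% and 41.9% of the tested P450 genes. The median log2 fold change (hypoxia over normoxia) of the 31 genes was -0.17 with vehicle, against -0.0038 over all genes, and -0.34 with ABT-263, against -0.02. These 2 comparisons share no library. In both, Cyp20a1 rose and Cyp2f2, Cyp4b1, Cyp2d22, Cyp4v3 and Cyp4f18 fell. Another 2 genes, Cyp1a1 and Cyp27a1, passed with vehicle and not with ABT-263, and 8 passed with ABT-263 and not with vehicle, but no P450 gene passed the test of the difference between the 2 comparisons, the interaction. Without the 3 libraries with conflicting labels the counts were again 14 with ABT-263 and 8 with vehicle.

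**Figure D1:**
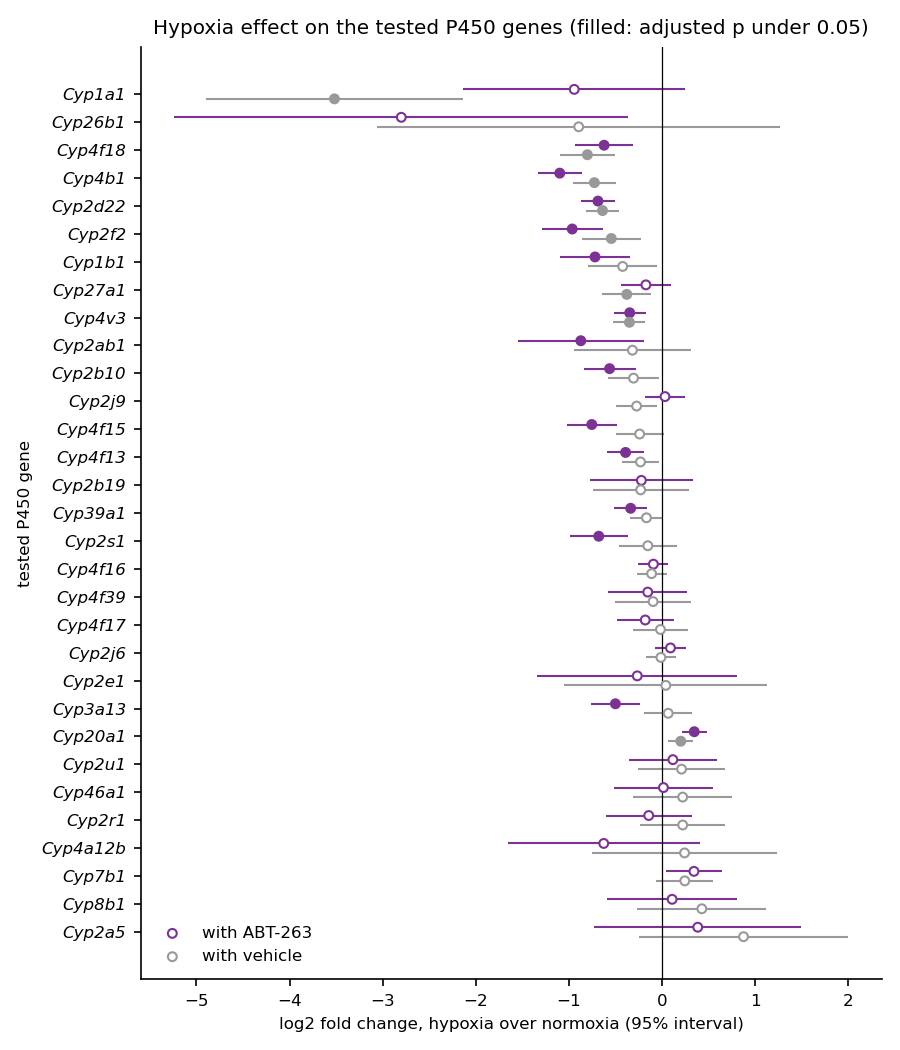
Log2 fold change, hypoxia over normoxia, with its 95% interval (horizontal axis) for the 31 tested P450 genes (vertical axis), with ABT-263 (purple) above vehicle (grey). Filled points passed the adjusted p threshold of 0.05: 14 with ABT-263 and 8 with vehicle, all below 0 except Cyp20a1 in both.

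The CYP1 genes, which oxidise polycyclic aromatic hydrocarbons and are the textbook AhR targets, held the largest P450 change with vehicle. The letters GCGTG are the core of the AhR binding element and are also 1 form of the core bound by hypoxia-inducible factors. They are shown in capitals, on either strand, in the 250 bases before the RefSeq start sites of both tested CYP1 genes (GRCm38.p6), because both genes were lower in hypoxia in at least 1 comparison. The Cyp1a1 window is chr9:57697363-57697612 on the plus strand, with 1 match starting at -54 from the start site. The Cyp1b1 window is chr17:79715062-79715311 on the minus strand, with 1 match, on the opposite strand, starting at -76.
Cyp1a1: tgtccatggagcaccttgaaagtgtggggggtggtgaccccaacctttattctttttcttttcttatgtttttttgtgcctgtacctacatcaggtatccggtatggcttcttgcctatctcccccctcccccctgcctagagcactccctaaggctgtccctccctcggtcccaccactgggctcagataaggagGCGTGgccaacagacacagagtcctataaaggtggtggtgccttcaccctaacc
Cyp1b1: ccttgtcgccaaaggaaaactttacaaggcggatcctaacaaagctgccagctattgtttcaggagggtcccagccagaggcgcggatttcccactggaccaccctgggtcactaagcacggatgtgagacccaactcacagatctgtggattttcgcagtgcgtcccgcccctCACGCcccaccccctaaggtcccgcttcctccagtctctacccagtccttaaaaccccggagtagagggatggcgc
GCGTG was found on either strand in 28.2% of 32851 RefSeq windows of the same length, and in windows of 10 of the 25 tested P450 genes that have one. The related ACGTG was in 16.6% of windows and in those of 5 of the 25 genes. These matches describe the letters and not binding.

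Cyp1a1 (chromosome 9, 57687928 to 57703824) had 2.74, 2.52, 4.99, 42.6 and 2.31 CPM in Hypoxia ABT-263. It ran from 1.25 to 2.88 CPM, median 2.07, in Hypoxia Vehicle, from 14.1 to 27.8 CPM, median 23.0, in Normoxia ABT-263, and was 29.1, 24.6, 19.4, 18.6 and 28.6 CPM in Normoxia Vehicle. Every hypoxia library but 1 was far below every normoxia library, and the exception, Hypoxia ABT-263 replicate 4, was above them all. With vehicle, Cyp1a1 fell 11.5-fold in hypoxia (log2 fold change -3.52 ± 0.66 SE, adjusted p = 0.00077). With ABT-263 the difference was -0.94 ± 0.57 (adjusted p = 0.201) with all libraries and -2.77 (adjusted p = 4.24e-08) without Hypoxia ABT-263 replicate 4. AhR-linked genes in that library went both ways. It was the highest of its group for Nqo1, an AhR and NRF2 target, at 35.3 CPM and for Aldh3a1 at 54.2 CPM, the lowest for Ahr at 44.1 CPM, and neither for Tiparp at 55.6 CPM. It was also the highest for Ces1f, a carboxylesterase, at 38.4 CPM and for the endothelial gene Plvap at 148.8 CPM. These genes were set beside it after values had been seen.

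Cyp1b1, which oxidises oestrogens and aromatic hydrocarbons, had 17.6, 12.9, 11.4, 24.3 and 9.0 CPM in Hypoxia ABT-263 and 16.7 to 32.5 CPM, median 24.7, in Normoxia ABT-263. The ranges overlapped, through replicates 1 and 4 of Hypoxia ABT-263. Cyp1b1 fell in this comparison (-0.72 ± 0.18, adjusted p = 0.00368). It averaged 18.5 ± 0.789 CPM in Hypoxia Vehicle and 24.8 ± 1.87 CPM in Normoxia Vehicle (-0.42 ± 0.18, adjusted p = 0.0843). Cyp1a2, the liver counterpart of Cyp1a1, was above 0 in 2 of 22 libraries and was not tested.

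Of the list of AhR and its partners and targets, 8 of 9 were tested. With ABT-263, 1 rose (Tiparp, an AhR-induced repressor, 0.35, adjusted p = 0.0136) and 2 fell (Aldh3a1, an aldehyde dehydrogenase, -1.02, adjusted p = 6.6e-05, and Ugt1a6a, a glucuronosyltransferase, -0.47, adjusted p = 0.00763). With vehicle, 1 rose and none fell. The shares over all genes were 17.9% higher and 21.3% lower with ABT-263, and 13.5% higher and 12.8% lower with vehicle. Ahr itself had medians of 50.7 CPM in Hypoxia ABT-263, 61.4 CPM in Hypoxia Vehicle, 54.0 CPM in Normoxia ABT-263 and 63.6 CPM in Normoxia Vehicle. Plvap, an endothelial gene of the capillary marker list, was 60.7 to 102 CPM in Hypoxia Vehicle and 410 to 624 CPM in Normoxia Vehicle. Of that list's 8 genes 4 fell and 1 rose with vehicle, and their summed level was 1375 to 1729 CPM in Hypoxia Vehicle and 1652 to 2131 CPM in Normoxia Vehicle. With ABT-263, 3 of the 8 fell and 2 rose. Their summed level was then 1488 to 2141 CPM in Hypoxia ABT-263 and 1573 to 2274 CPM in Normoxia ABT-263, with overlap. Plvap alone was 69.9 to 149 CPM in Hypoxia ABT-263 and 374 to 647 CPM in Normoxia ABT-263. The part of these cells in the Cyp1a1 result was not tested.

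Of the 24 CYP2 genes of foreign-chemical metabolism, 8 were tested. With vehicle 2 fell, and with ABT-263 5 fell, where 12.8% and 21.3% of all genes were lower. None rose. Cyp2f2 (chromosome 7, 27119909 to 27133660) had 4028, 4219, 4034, 4793 and 3823 CPM in Hypoxia ABT-263 and ran from 4103 to 6397 CPM, median 5450.4, in Hypoxia Vehicle. It ran from 4809 to 10113 CPM, median 9073, in Normoxia ABT-263 and was 8575, 7662, 7461, 7059 and 8140 CPM in Normoxia Vehicle. Hypoxia and normoxia ranges did not overlap in either treatment. Cyp2f2 fell by 0.97 on the log2 scale with ABT-263 (SE 0.16, adjusted p = 4.12e-05) and by 0.55 with vehicle (SE 0.15, adjusted p = 0.011). All its counts are estimates that divide shared reads, since none of its 22 values was whole.

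Cyp2d22, a member of the drug-oxidising CYP2D family, had 26.7, 25.3, 30.2, 25.2 and 26.9 CPM in Hypoxia ABT-263, 26.9 to 34.1 CPM, median 29.7, in Hypoxia Vehicle, 34.5 to 49.6 CPM, median 44.4, in Normoxia ABT-263, and 45.7, 43.9, 54.4, 45.2 and 43.5 CPM in Normoxia Vehicle. Every hypoxia library was below every normoxia library. Its log2 fold change was -0.69 ± 0.09 with ABT-263 (adjusted p = 1.82e-06) and -0.64 ± 0.09 with vehicle (adjusted p = 6.75e-06), so the estimates differed by less than their errors. It was the only tested gene of the 8 Cyp2d genes clustered on chromosome 15.

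Cyp2s1 fell with ABT-263 (215 ± 27.2 CPM in Hypoxia ABT-263 and 344 ± 73.5 CPM in Normoxia ABT-263, log2 fold change -0.68 ± 0.15, adjusted p = 0.00115). With vehicle it averaged 283 ± 64.4 CPM in hypoxia and 314 ± 34.2 CPM in normoxia (-0.15 ± 0.15, adjusted p = 0.485). Cyp2b10 likewise fell with ABT-263 (179 ± 25.5 and 265 ± 61.2 CPM in hypoxia and normoxia, -0.56 ± 0.14, adjusted p = 0.002), against 205 ± 27.3 CPM in Hypoxia Vehicle and 254 ± 24.9 CPM in Normoxia Vehicle (-0.31 ± 0.13, adjusted p = 0.0912). Cyp2ab1, at 0.682 ± 0.242 CPM in Hypoxia ABT-263 and 1.25 ± 0.492 CPM in Normoxia ABT-263, passed (-0.87 ± 0.33, adjusted p = 0.0373), but not without replicate 1, 4 or 5 of Hypoxia ABT-263 or replicate 2, 4 or 6 of Normoxia ABT-263 (adjusted p up to 0.107). In the chromosome 7 cluster, then, Cyp2f2 fell in both comparisons, its tested neighbours Cyp2s1 and Cyp2b10 in the ABT-263 comparison, and Cyp2a5 and Cyp2b19 in neither.

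Scgb1a1 fell with these genes, while the club cell marker list as a whole was mixed. Scgb1a1, the main club cell secretory protein, was 35190 to 46793 CPM in Hypoxia ABT-263, 41331 to 69449 CPM in Hypoxia Vehicle, 45164 to 86168 CPM in Normoxia ABT-263 and 63802 to 92221 CPM in Normoxia Vehicle. It fell by 0.77 on the log2 scale with ABT-263 (adjusted p = 0.000639) and by 0.48 with vehicle (adjusted p = 0.0303). Of the 8 club cell markers, 3 fell and none rose with ABT-263, and 1 fell and 1 (Scgb3a1) rose with vehicle. The shares over all genes were 21.3% lower and 17.9% higher with ABT-263, and 12.8% lower and 13.5% higher with vehicle. The list's median log2 fold change was -0.04 with ABT-263, against -0.02 over all genes, and 0.20 with vehicle, against -0.0038. Its summed level, of which Scgb1a1 made up 78.5% to 93.3%, was 40662 to 57169 CPM in Hypoxia ABT-263, 48855 to 78670 CPM in Hypoxia Vehicle, 55905 to 95162 CPM in Normoxia ABT-263 and 69490 to 101768 CPM in Normoxia Vehicle.

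Deviations of Cyp2f2 and Scgb1a1 from their group means went together over the 22 libraries (Pearson r = 0.88 on log2 values, permutation p = 5e-05, Benjamini-Hochberg p = 0.00036 over 36 relations of airway genes). Within groups r was 0.23 in Hypoxia ABT-263 (n = 5), 0.82 in Hypoxia Vehicle (n = 6), 0.99 in Normoxia ABT-263 (n = 6) and 0.95 in Normoxia Vehicle (n = 5), so it was weakest in Hypoxia ABT-263. Of the other 7 club cell markers, only Pon1 passed with Cyp2f2 on the same measure (r = 0.74, adjusted permutation p = 0.019). Its r was 0.95 in Normoxia ABT-263, 0.55 in Normoxia Vehicle, 0.41 in Hypoxia Vehicle and -0.38 in Hypoxia ABT-263. With group means kept it was 0.24 (permutation p = 0.285). Chad had r = 0.51 and Reg3g -0.60 (adjusted permutation p = 0.076 for each). The others were Bpifa1 -0.46, Scgb3a1 -0.45, Hp 0.17 and Scgb3a2 0.037 (adjusted permutation p from 0.175 to 0.943). With group means kept, Chad (r = 0.81) and Hp (r = 0.62) passed. Scgb3a1 (r = -0.69) and Reg3g (r = -0.68) also passed, in the opposite direction. In Normoxia ABT-263, replicates 2 and 6 had the lowest Cyp2f2 (4809 and 5799 CPM) and the lowest Scgb1a1 (45164 and 53972 CPM). Cyp2f2 per 100 Scgb1a1 counts was 10.4 (median) in Hypoxia ABT-263 and 11.7 in Normoxia ABT-263 (exact permutation p = 0.0866 of 462 arrangements, adjusted p = 0.231 over 8 ratios), and 10.2 in Hypoxia Vehicle and 10.7 in Normoxia Vehicle (exact p = 0.446, adjusted p = 0.51). Cyp4b1 per 100 Scgb1a1 counts was 0.691 in Hypoxia ABT-263 and 0.876 in Normoxia ABT-263 (exact p = 0.00216, adjusted p = 0.0173), and 0.661 in Hypoxia Vehicle and 0.771 in Normoxia Vehicle (exact p = 0.0455, adjusted p = 0.182). Cyp2b10 and Cyp2s1 ratios did not pass in either comparison (exact p from 0.126 to 0.558). The ratios and these relations were chosen after values had been seen. Whether the fall of Cyp2f2 is a fall in club cells was not tested.

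Of the 20 CYP4 genes, which oxidise the far end of fatty acids and of lipid mediators such as leukotrienes, 9 were tested. With vehicle 3 fell and with ABT-263 5 fell, where 12.8% and 21.3% of all genes were lower, and none rose. Cyp4b1 (chromosome 4, 115624725 to 115647723) had 265, 301, 285, 273 and 281 CPM in Hypoxia ABT-263, 293 to 375 CPM, median 351, in Hypoxia Vehicle, 410 to 714 CPM, median 644, in Normoxia ABT-263, and 585, 611, 566, 491 and 587 CPM in Normoxia Vehicle. All hypoxia libraries were below all normoxia libraries. Its log2 fold change was -1.10 ± 0.12 with ABT-263 (adjusted p = 1.08e-07) and -0.73 ± 0.11 with vehicle (adjusted p = 3.71e-05).

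**Figure D2:**
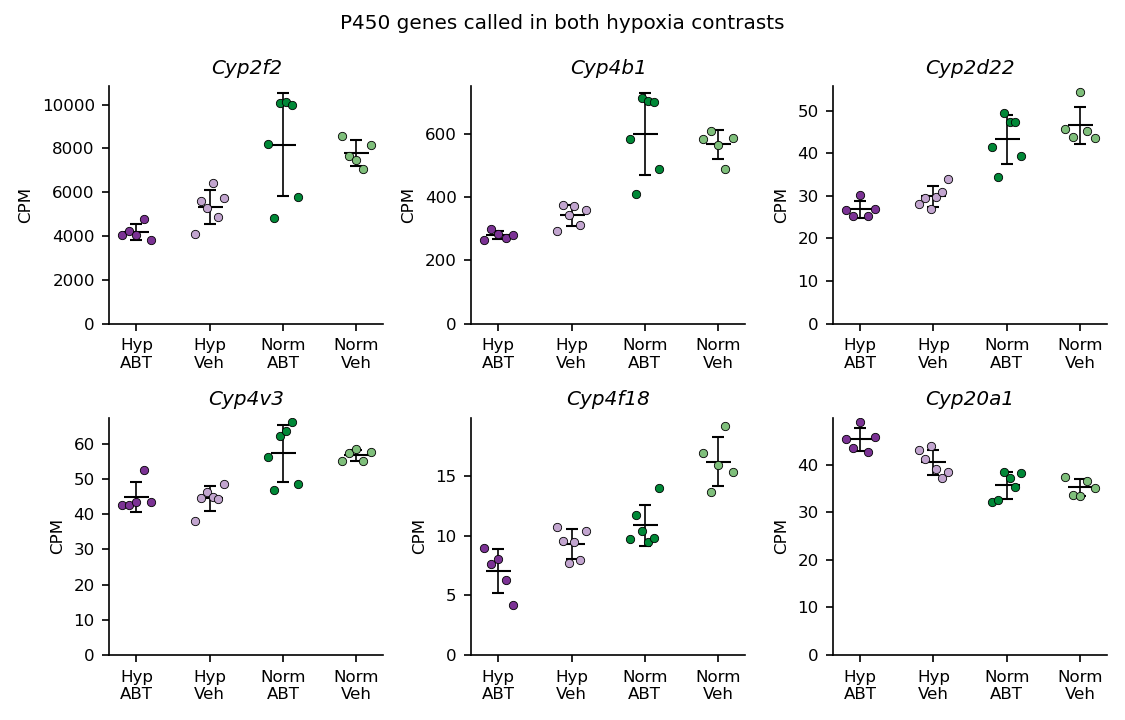
CPM (vertical axis) of the 6 P450 genes called in both hypoxia comparisons, 1 panel per gene, by group (horizontal axis); points are libraries, and the bar and whiskers are the mean and SD. In all panels but Cyp20a1 the hypoxia groups sit lower than the normoxia groups, and in the Cyp20a1 panel they sit higher.

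Cyp4v3, the mouse counterpart of the human eye disease gene CYP4V2, had 42.7, 42.6, 43.5, 52.5 and 43.6 CPM in Hypoxia ABT-263 and 46.8 to 66.1 CPM, median 59.3, in Normoxia ABT-263. It was 38.2 to 48.6 CPM, median 44.7, in Hypoxia Vehicle and 55.0, 57.3, 58.6, 55.0 and 57.8 CPM in Normoxia Vehicle. Its change was -0.35 ± 0.08 in both comparisons (adjusted p = 0.00204 with ABT-263 and 0.00308 with vehicle), with an overlap of groups only under ABT-263. Cyp4f15, a leukotriene and fatty acid hydroxylase, fell with ABT-263 (10.8 ± 1.12 CPM in Hypoxia ABT-263 and 18.3 ± 4.36 CPM in Normoxia ABT-263, -0.76 ± 0.13, adjusted p = 6.97e-05). With vehicle it was 14.8 ± 0.551 CPM in hypoxia and 17.5 ± 1.69 CPM in normoxia (-0.24 ± 0.13, adjusted p = 0.159).

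Cyp4f18, known in mouse neutrophils for hydroxylating leukotriene B, and Cyp4f13 were the only P450 genes called for ABT-263. Cyp4f18 had 9.02, 7.65, 8.10, 6.29 and 4.21 CPM in Hypoxia ABT-263, 7.75 to 10.8 CPM, median 9.52, in Hypoxia Vehicle, 9.46 to 14.0 CPM, median 10.1, in Normoxia ABT-263, and 16.9, 13.7, 16, 19.2 and 15.4 CPM in Normoxia Vehicle. All Normoxia Vehicle libraries stood above all hypoxia libraries, and the lowest values were in Hypoxia ABT-263. Averaged over oxygen conditions it fell by 0.49 on the log2 scale with ABT-263 (SE 0.10, adjusted p = 0.0123). With treatment read from the tag, the label that conflicts in 3 libraries, this call was lost (-0.36, adjusted p = 0.297), and without those libraries it held (-0.51, adjusted p = 0.0189). Cyp4f18 was lower in hypoxia with ABT-263 (-0.62 ± 0.15, adjusted p = 0.00197) and with vehicle (-0.80 ± 0.14, adjusted p = 0.000194). White blood cell marker lists moved in different directions. Over all genes, hypoxia lowered 21.3% and raised 17.9% with ABT-263, and lowered 12.8% and raised 13.5% with vehicle. For ABT-263 averaged over oxygen 1.31% were lower. Of 7 tested neutrophil markers, 4 fell in hypoxia with ABT-263 and 3 with vehicle, and none was called for ABT-263 averaged over oxygen (median log2 fold change -0.46). The summed level of all 8 in the list was 66.3 to 142 CPM in Hypoxia ABT-263, 119 to 250 CPM in Hypoxia Vehicle, 132 to 365 CPM in Normoxia ABT-263 and 202 to 373 CPM in Normoxia Vehicle. All 8 B cell markers fell in both hypoxia comparisons and with ABT-263 averaged over oxygen, where 6 of 8 T cell markers also fell. Summed B cell markers were 100 to 128 CPM in Hypoxia ABT-263, 172 to 236 CPM in Hypoxia Vehicle, 195 to 277 CPM in Normoxia ABT-263 and 257 to 463 CPM in Normoxia Vehicle. In hypoxia 5 of 8 T cell markers fell with ABT-263 and 7 with vehicle. In contrast, 7 of 9 alveolar macrophage markers rose in hypoxia with ABT-263 and 6 with vehicle, and none fell. Summed, they were 589 to 747 CPM in Hypoxia ABT-263, 544.5 to 749.8 CPM in Hypoxia Vehicle, 301 to 479 CPM in Normoxia ABT-263 and 272 to 429.5 CPM in Normoxia Vehicle. Of 8 monocyte and interstitial macrophage markers, 2 rose and 4 fell with ABT-263, and 1 rose and 4 fell with vehicle. The part of these cells in the Cyp4f18 result was not tested.

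Cyp4f13 averaged 15.4 ± 2.38 CPM in Hypoxia ABT-263, 19.7 ± 2.68 CPM in Hypoxia Vehicle, 20.3 ± 1.27 CPM in Normoxia ABT-263 and 23.1 ± 1.27 CPM in Normoxia Vehicle. It fell by 0.27 on the log2 scale with ABT-263 averaged over oxygen (SE 0.07, adjusted p = 0.0362) and by 0.39 in hypoxia with ABT-263 (SE 0.10, adjusted p = 0.00237). The call averaged over oxygen was lost with treatment read from the tag (-0.24, adjusted p = 0.27) and (adjusted p up to 0.0695) without any 1 of replicates 2, 4 and 5 of Hypoxia ABT-263, 1, 4 and 6 of Hypoxia Vehicle, 6 of Normoxia ABT-263 and 1, 3 and 4 of Normoxia Vehicle.

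Cyp20a1 was the only one of the 31 tested P450 genes called higher in hypoxia. It had 45.3, 43.5, 49.0, 42.6 and 45.8 CPM in Hypoxia ABT-263 and 32.1 to 38.5 CPM, median 36.2, in Normoxia ABT-263, without overlap. In Hypoxia Vehicle it was 37.3 to 44.0 CPM, median 40.0, and in Normoxia Vehicle 37.3, 33.6, 33.3, 36.6 and 35.1 CPM, where 37.3 CPM was both the lowest hypoxia and the highest normoxia value to 3 digits. The increase was small, 0.35 ± 0.06 with ABT-263 (adjusted p = 0.000192) and 0.20 ± 0.07 with vehicle (adjusted p = 0.0249), and the gene varied least within groups of all 31 (SD 0.0929 on the log2 scale). The vehicle call was lost (adjusted p up to 0.064) without replicate 3 of Hypoxia Vehicle or replicate 2, 3 or 5 of Normoxia Vehicle.

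Among the other families, Cyp3a13, the only tested gene of 9 CYP3A genes, fell with ABT-263 (6.31 ± 0.764 CPM in hypoxia and 8.93 ± 0.963 CPM in normoxia, -0.50 ± 0.13, adjusted p = 0.00338), and was 8.29 ± 1.30 CPM in Hypoxia Vehicle and 7.92 ± 1.29 CPM in Normoxia Vehicle. Of 5 tested cholesterol and bile acid genes, Cyp39a1 fell with ABT-263 (49.1 ± 5.51 and 62.1 ± 5.22 CPM in hypoxia and normoxia, -0.34 ± 0.09, adjusted p = 0.00369). Cyp27a1, the mitochondrial sterol hydroxylase, fell with vehicle (21.3 ± 4.76 and 27.7 ± 3.29 CPM in hypoxia and normoxia, -0.38 ± 0.13, adjusted p = 0.0285), but not without replicate 2 or 3 of Hypoxia Vehicle or replicate 3 or 4 of Normoxia Vehicle (adjusted p up to 0.0825). None of the 3 tested epoxygenase genes (Cyp2j6, Cyp2j9 and Cyp2u1) or Cyp2r1, a vitamin D hydroxylase, was called in any comparison.

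Cyp26b1 breaks down retinoic acid, and its expression is itself induced by retinoic acid. It varied more within groups than any other tested P450 gene (SD 1.71 on the log2 scale). It had 14.9, 11.4, 8.43, 41.8 and 8.59 CPM in Hypoxia ABT-263, 210 CPM in Hypoxia Vehicle replicate 1 and 20.9 to 41.3 CPM in the other 5, 441, 144, 49.9, 26.6, 48.6 and 8.83 CPM in Normoxia ABT-263, and 12.6, 431, 32.4, 5.84 and 68.7 CPM in Normoxia Vehicle. The groups overlapped, and 1 library stood far above the rest in each. Hypoxia over normoxia was -2.80 ± 1.16 with ABT-263 (adjusted p = 0.0639) and -0.90 ± 1.03 with vehicle (adjusted p = 0.567), and neither passed. The first passed without replicate 1 of Hypoxia Vehicle, replicate 6 of Normoxia ABT-263 or replicate 2 of Normoxia Vehicle (lowest adjusted p = 0.0348). The highest Hypoxia Vehicle and Normoxia ABT-263 libraries are among the 3 with conflicting labels. Without those 3 the difference was -1.62 with ABT-263 (adjusted p = 0.27) and -1.92 with vehicle (adjusted p = 0.169), and with treatment read from the other label it was 0.0266 and -2.63 (adjusted p = 0.988 and 0.0627).

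Over the 22 libraries Cyp26b1 went with Lrat, which stores retinol as esters (Pearson r = 0.83, permutation p = 1e-05, the smallest 100000 permutations give; Spearman rho = 0.79, p = 2e-05), and with Rarb, a retinoic acid receptor (r = 0.79, p = 2e-05; rho = 0.78, p = 3e-05). It also went with Dhrs3, a retinal reductase (r = 0.65, p = 0.00107; rho = 0.59, p = 0.00446), and against Crabp1, a retinoic acid binding protein at 0.400 to 3.68 CPM (r = -0.73, p = 8e-05; rho = -0.67, p = 0.00104). Rarb was also low, at 2.56 to 9.03 CPM, and most of its counts were not whole, so they divide shared reads. Without the 2 libraries farthest from the median of the partner gene, chosen separately for each relation, the r values were 0.76, 0.73, 0.41 and -0.62. Libraries extreme in Cyp26b1 itself could stay in. All 4 held after adjustment over the 12 retinoid relations computed (adjusted p from 0.00012 to 0.00321 for r), and with group means removed r was 0.87, 0.81, 0.72 and -0.75. Within groups, r with Lrat was 0.18 in Hypoxia ABT-263, 0.98 in Hypoxia Vehicle and in Normoxia ABT-263, and 0.95 in Normoxia Vehicle. The other 8 relations, among them Aldh1a2 and Rara, did not pass for r. With group means removed, Rdh10 did pass (r = -0.51, adjusted permutation p = 0.0479). In Hypoxia Vehicle replicate 1, for example, Cyp26b1 at 210 CPM stood with Lrat at 211 CPM, while the other 5 libraries had Lrat at 52.3 to 76.3 CPM.

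Rarb carries a known retinoic acid response element, a direct repeat, just before its start. The window is chr14:16575477-16575726 on the minus strand (GRCm38.p6), shown with its repeat of GTTCA, 6 bases apart, in capitals, starting at -52. That spaced repeat, on either strand, was in 0.067% of the 32851 windows and in none of the 25 tested P450 genes' windows. Of all 76 P450 genes with a window, tested or not, 1 carried it.
Rarb: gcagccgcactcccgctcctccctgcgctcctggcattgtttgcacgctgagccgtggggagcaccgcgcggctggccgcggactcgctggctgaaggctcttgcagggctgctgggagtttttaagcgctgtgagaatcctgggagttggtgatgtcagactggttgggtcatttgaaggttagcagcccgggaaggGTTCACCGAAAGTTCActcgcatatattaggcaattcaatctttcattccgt

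Of 9 tested retinoid handling genes, 1 rose and 3 fell in hypoxia with ABT-263, and 1 rose and 1 fell with vehicle. Over all genes, 17.9% rose and 21.3% fell with ABT-263, and 13.5% rose and 12.8% fell with vehicle. Dhrs3 fell in both hypoxia comparisons (-0.72 with ABT-263, adjusted p = 9.28e-05, and -0.49 with vehicle, adjusted p = 0.00504), and Rbp4 and Aldh1a1 fell with ABT-263. Of 13 tested nuclear receptor genes, 6 fell and 1 (Nr1h3) rose with ABT-263, and 3 fell with vehicle. Rxra, Rara and Vdr fell in both, Rxra by 0.51 with ABT-263 and by 0.30 with vehicle on the log2 scale, and Rarb fell with ABT-263 (-0.62 ± 0.21, adjusted p = 0.021).

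3 further P450 genes varied widely within groups without passing any test: Cyp2a5, Cyp2e1, the ethanol-oxidising P450, and Cyp4a12b, a fatty acid hydroxylase. Cyp2a5 was 27.0 to 143 CPM in Hypoxia ABT-263, 36.4 to 198 CPM in Hypoxia Vehicle, 25.1 to 100.2 CPM in Normoxia ABT-263 and 18.8 to 84.9 CPM in Normoxia Vehicle. Cyp2e1 was 6.92 to 24.1 CPM in Hypoxia ABT-263, 4.09 to 21.3 CPM in Hypoxia Vehicle, 4.75 to 30.6 CPM in Normoxia ABT-263 and 6.67 to 20.8 CPM in Normoxia Vehicle. Cyp4a12b was low, at 5 to 65 counts per library. It was 0.793 to 3.04 CPM in Hypoxia ABT-263 and 0.448 to 4.42 CPM in Hypoxia Vehicle. In normoxia it was 0.611 to 4.38 CPM with ABT-263 and 0.928 to 2.60 CPM with vehicle. The fitted hypoxia difference of Cyp2a5 was 0.38 ± 0.53 with ABT-263 (adjusted p = 0.602) and 0.87 ± 0.54 with vehicle (adjusted p = 0.247), and that of Cyp2e1 was -0.27 ± 0.51 and 0.040 ± 0.52 (adjusted p = 0.714 and 0.968).

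These 3 genes went with Bpifa1, a secretory protein of the larger airways, over the 22 libraries. Pearson r was 0.76 for Cyp2a5 (permutation p = 5e-05, rho = 0.75, p = 0.00014), 0.72 for Cyp2e1 (p = 0.00014, rho = 0.73, p = 0.00022) and 0.79 for Cyp4a12b (p = 2e-05, rho = 0.77, p = 6e-05), with adjusted p from 0.00024 to 0.00072 for r over the 36 airway relations. Without the 2 libraries farthest from the median of Bpifa1, r was 0.68, 0.73 and 0.71. Of the other club cell markers, Reg3g also went with all 3 genes (r = 0.69, 0.64 and 0.61). On this r, Scgb3a1 passed with Cyp2a5 (r = 0.72) and not with Cyp2e1 or Cyp4a12b. With group means removed, Scgb3a1 also passed with Cyp2e1 (r = 0.70, adjusted permutation p = 0.00115) and Cyp4a12b (r = 0.74, adjusted permutation p = 0.00027). Scgb1a1 (r = -0.17, -0.21 and -0.03), Scgb3a2, Hp, Chad and Pon1 did not pass for any of them. All 3 genes also went with Adipoq, an adipocyte gene at 1.43 to 29.1 CPM. The relation was closest for Cyp2e1 (r = 0.80, rho = 0.84, permutation p = 1e-05 for each, r = 0.79 without the 2 libraries farthest in Adipoq). For Cyp2a5 and Cyp4a12b r with Adipoq was 0.66 and 0.62 (adjusted permutation p = 0.00255 and 0.00501). Hypoxia Vehicle replicate 5 held the highest Cyp2a5 (198 CPM) and the highest Bpifa1 (3135 CPM) of its group. Bpifa1 itself ran from 29.5 to 3135 CPM over the libraries. The genes and partners here were picked after values had been seen, and the part that the piece of lung or airway sampled plays in these levels was not tested.

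**Figure D3:**
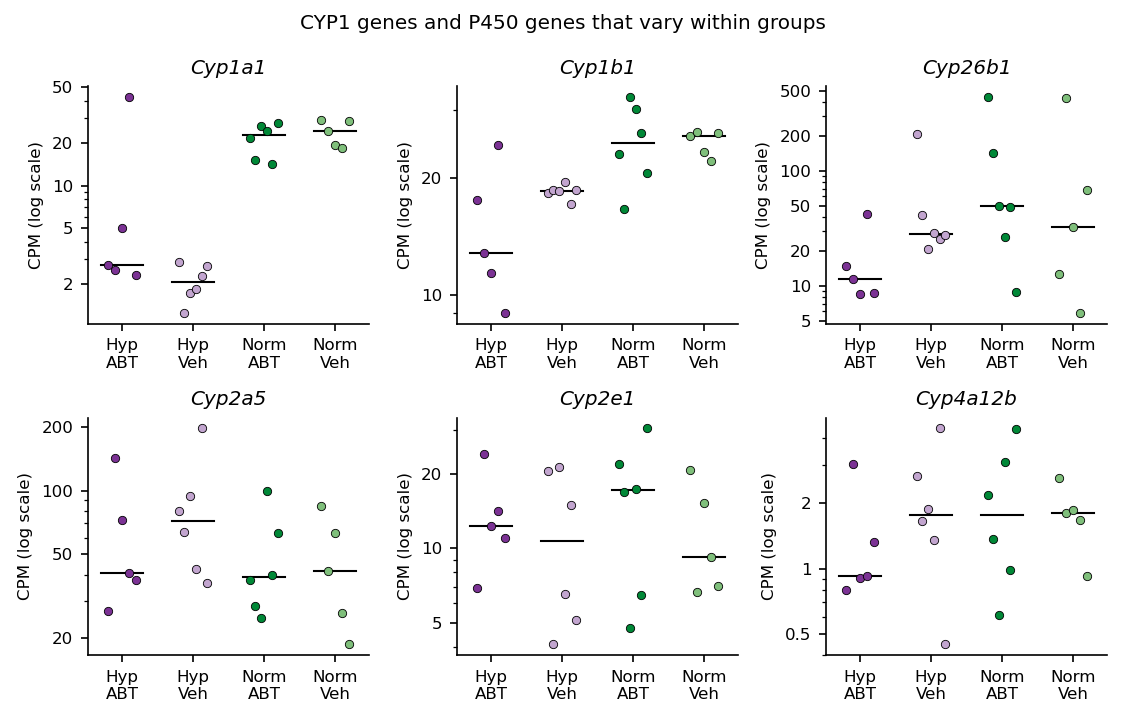
CPM on a log axis (vertical) of CYP1 genes and of P450 genes that vary within groups, 1 panel per gene, by group (horizontal axis); points are libraries and bars are medians. Cyp1a1 is at 1.25 to 4.99 CPM in all hypoxia libraries except Hypoxia ABT-263 replicate 4, at 42.6 CPM.

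**Figure D4:**
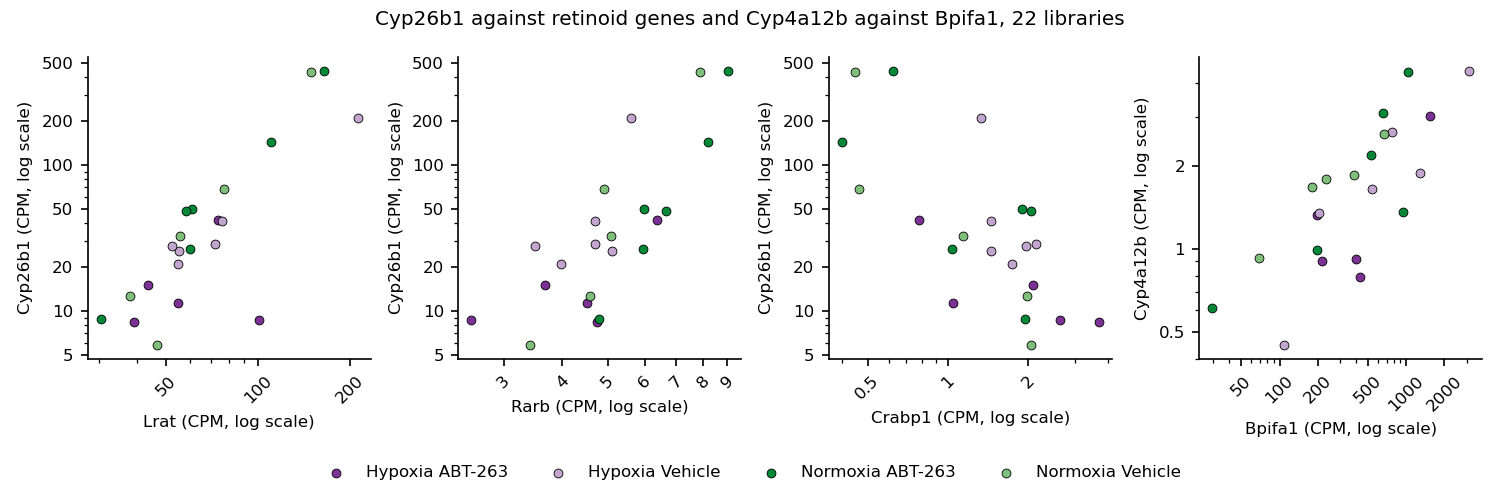
Cyp26b1 against Lrat, Rarb and Crabp1, and Cyp4a12b against Bpifa1, in CPM on log axes, 1 point per library and coloured by group. Over all 22 libraries, those with more Cyp26b1 had more Lrat and Rarb and less Crabp1 (r = 0.83, 0.79 and -0.73). Within Hypoxia ABT-263 alone r with Lrat was 0.18.

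For the ABT-263 comparisons, no P450 gene was called by edgeR in hypoxia (0 of 31, against a background of 0.301%, 0.114% higher and 0.186% lower, with 9, or 29%, at an unadjusted p under 0.05, against 14.3% of all genes, and 1 called by DESeq2) or in normoxia (0 of 31, background 0.535%, 0.108% higher and 0.427% lower, with 2, or 6.45%, at an unadjusted p under 0.05, against 13% of all genes, and 1 called by DESeq2). The call in hypoxia by DESeq2 was Cyp1a1, higher with ABT-263 by 2.39 on the log2 scale (adjusted p = 0.0121) with Hypoxia ABT-263 replicate 4 included; by edgeR it was 2.42 ± 0.68 (adjusted p = 0.133) with that library and 0.58 (adjusted p = 0.441) without it. The call in normoxia by DESeq2 was Cyp4f18, lower by 0.59 (adjusted p = 0.0088), against -0.58 ± 0.14 by edgeR (adjusted p = 0.0614). By edgeR Cyp4f18 passed in normoxia without replicate 1 or 5 of Hypoxia ABT-263, 2 or 6 of Normoxia ABT-263 or 2 of Normoxia Vehicle, and Cyp4f13 passed in hypoxia without replicate 1 of Hypoxia ABT-263 (-0.44, adjusted p = 0.0207). Averaged over oxygen, 2 were called, both lower, against a background of 2.54% (1.23% higher and 1.31% lower). That comparison rests on the titles: with treatment read from the tag edgeR called 0 genes of the whole table (1916 at an unadjusted p under 0.05), against 423 (2883) by the titles. The interaction, which asks whether hypoxia acted differently with ABT-263, called no gene of the whole table (background 0%), and 5 P450 genes (16.1%) had an unadjusted p under 0.05, against 9.29% of all genes, all but Cyp1a1 with a more negative hypoxia difference with ABT-263. The smallest p was that of Cyp3a13, at -0.57 ± 0.18 (adjusted p = 0.338). DESeq2 called 0 P450 genes for the interaction.

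P450s depend on electron donors. Of 10 tested electron donor genes, 3 fell and none rose in hypoxia with ABT-263, and 2 fell and 1 rose with vehicle, where 21.3% and 12.8% of all genes were lower. The list's median log2 fold change was 0.07 with ABT-263 and -0.01 with vehicle. Por, cytochrome P450 reductase, fell with ABT-263 (-0.66 ± 0.12, adjusted p = 0.000158) and was -0.18 ± 0.12 with vehicle (adjusted p = 0.281). Fdxr, which serves the mitochondrial P450s, fell by 0.49 with ABT-263 and by 0.41 with vehicle on the log2 scale (adjusted p = 0.00101 and 0.00689). Pgrmc2, a haem-binding P450 partner, fell by 0.47 and by 0.31 (adjusted p = 0.000158 and 0.0101). Of 22 flavin monooxygenase and conjugating enzyme genes, 11 fell and none rose with ABT-263, and 9 fell and 1 rose with vehicle (median log2 fold change -0.39 and -0.20), led by Fmo1 (-1.45 ± 0.105 with ABT-263 and -1.53 ± 0.102 with vehicle) and Aox3, an aldehyde oxidase (-1.18 and -0.88). Of 3 P450 enzymes outside the naming rule, Ptgis, prostacyclin synthase, rose in both comparisons (0.27 with ABT-263, adjusted p = 0.0357, and 0.39 with vehicle, adjusted p = 0.00577), Cyp51 rose with ABT-263 (0.28, adjusted p = 0.0346), and Tbxas1 was not called.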

How the data were processed

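The authors deposited 1 table of expected counts per gene for 22 lung libraries; Trimmomatic, STAR, RSEM and the GRCm38 build are named in the submitters' processing notes, with no versions. Expected counts divide reads that several genes share: 6 P450 genes had values that were not whole (tolerance 0.005). Members, lists, tests and alternatives were chosen with earlier results of these data known. Counts were rounded, filtered with filterByExpr (minimum count 10, 16638 genes kept) and fitted with edgeR 4.0.16 (robust quasi-likelihood, TMM factors, R 4.3.3) in one model of 4 groups, adjusted by Benjamini-Hochberg over all genes, threshold 0.05, two-sided. CPM uses TMM factors. SE is the log2 fold change divided by the square root of F. Replicate libraries of a group differed beyond sampling noise (chi-square per gene 5.35 to 40.9). Correlations used log2(CPM + 0.1) and 100000 permutations. The named genes were those called in any comparison, the 8 highest per kilobase and Cyp1a1, Cyp1a2, Cyp1b1, Cyp2f2, Cyp2e1, Cyp4b1 and Cyp26b1; Cyp4a12b and airway partners were added after values were seen. All 99 gene identifiers matched GENCODE M21, and 76 had a RefSeq promoter window. Alternatives were DESeq2 1.42.0, RLE factors, library totals without TMM, no filter, the compared groups only, treatment read from the tag, the 3 libraries left out, and each library left out. Leaving out Normoxia ABT-263 replicates 2 and 6 was added after the data were seen. The fits were tested on simulated counts. Results for 2 genes of the pathway lists are not reported here.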

Additional observations from a re-analysis of the deposited data

Results flagged for a closer look

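A library far from the rest of its group was found in 10 of 76 groups of P450 gene values tested. The cut-off gives about 1 in 20 by chance for normally distributed values in independent groups. The values were CPM without logs, from the same 22 libraries, so that rate need not hold for the 10 flagged groups. Cyp26b1 accounted for 4: Hypoxia ABT-263 replicate 4 (41.8 CPM, the others 8.43 to 14.9 CPM), Hypoxia Vehicle replicate 1 (209.9 CPM, the others 20.9 to 41.3 CPM), Normoxia ABT-263 replicate 1 (441 CPM, the others up to 143.8 CPM) and Normoxia Vehicle replicate 2 (431 CPM, the others up to 68.7 CPM). Hypoxia ABT-263 replicate 4 was also the highest of its group for Cyp1a1 (42.6 CPM, next 4.99 CPM) and Cyp4v3 (52.5 CPM, next 43.6 CPM). The other values were Cyp2a5 in Hypoxia Vehicle replicate 5 (197.6 CPM, next 94.3 CPM), Cyp2ab1 in Hypoxia Vehicle replicate 4 (1.64 CPM, next 0.968 CPM), Cyp2d22 in Normoxia Vehicle replicate 3 (54.4 CPM, next 45.7 CPM) and Cyp2s1 in Hypoxia ABT-263 replicate 1, which was the lowest (166.9 CPM, next 220.4 CPM). The causes of these values were not tested.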

How the results depend on the processing

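The hypoxia counts kept within 1.5 times under every alternative: 6 to 10 P450 genes with vehicle and 13 to 16 with ABT-263 when a library was left out, and 8 to 12 and 13 to 15 under the others. The count for ABT-263 in normoxia was 0, and was 1 (Cyp4f18) with DESeq2, with no low-count filter and without Normoxia ABT-263 replicates 2 and 6, and 0 to 1 when a library was left out. In hypoxia it was 0, and was 1 with DESeq2 (Cyp1a1), in the compared groups only and without those 2 libraries (both Cyp4f15), and 0 to 1 when a library was left out. Averaged over oxygen it was 2, but 0 with treatment read from the tag, 1 without those 2 libraries and 1 to 2 when a library was left out. The interaction count was 0, and 1 without those 2 libraries (Cyp4f15, -0.69, adjusted p = 0.0389). The causes were not tested. Alternatives were computed for 27 gene values, those called plus Cyp1a1 and Cyp26b1. The Cyp26b1 difference in hypoxia with ABT-263 reversed to 0.0266 with treatment read from the tag and passed with DESeq2 (adjusted p = 0.0119). Calls of Cyp20a1 with vehicle, Cyp27a1, Cyp2ab1, Cyp4f13 and Cyp4f18 (the last 2 for ABT-263) were lost under 7, 4, 11, 12 and 1 alternatives. Replicate numbers pair no libraries. Depth limits the 68 genes not tested: differences among them were not detectable here.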
